A study of Mus musculus with 8 samples.

Results

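The genes described here are the 4 mouse Fc gamma receptor genes Fcgr1, Fcgr2b, Fcgr3 and Fcgr4, together with Fcer1g and Syk, the shared signalling chain and the kinase through which the activating receptors signal. They make up 6 of the 24421 entries in a table of normalized counts from RNA sequencing of RAW macrophages. These genes were taken by symbol, and they and the gene lists below were chosen with earlier results of these data known. These cells are a single mouse macrophage line transformed by a leukaemia virus, so every library is of 1 line. Statin LPS cells received a statin at 7 µM with lipoprotein-deficient serum and then lipopolysaccharide (LPS) at 100 ng/ml for 3 h. Statin cells received the statin and that serum with no LPS, and ctl LPS cells received LPS with no statin. Ctrl cells received neither. Per the study the statin was lovastatin, supplied along with mevalonate, and no source used here says which serum the cells lacking statin had, or whether they received mevalonate. The LPS medium held albumin, so a comparison with resting cells also holds any effect of that medium. Each group had 2 libraries, and nothing states that they came from separate cultures, so the p-values below measure only the spread between these libraries. The series asks how a cholesterol-lowering treatment changes gene expression in macrophages with and without LPS, a component of the bacterial outer membrane.

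Fc gamma receptors bind the constant part of IgG and let macrophages take up and respond to antibody-coated particles. Fcgr1, Fcgr3 and Fcgr4 are activating: each pairs with the Fcer1g chain, whose tyrosine motif (ITAM) is phosphorylated by Src family kinases and then recruits the kinase Syk. Fcgr2b has no such chain and carries an inhibitory motif (ITIM) that recruits the lipid phosphatase encoded by Inpp5d and opposes the activating receptors. Fcgr1 is the high-affinity receptor and is known as an interferon-inducible gene in macrophages, while Fcgr2b and Fcgr3 are low-affinity receptors with closely related extracellular parts.

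The 8 libraries held 37001178 to 76423673 reads, and 1 read was worth 0.781 to 1.33 normalized counts. The test covered 11647 genes whose normalized count averaged 10 or more, all 6 described here among them. Of 8 macrophage markers 7 were high in every library, while Mertk had 1.56 and 21.6 normalized counts in Ctrl cells and 41.4 to 320.1 in the other libraries. Markers of other cells that carry Fc receptors were near 0: the summed level was 0 to 20.0 for B cells, 0 to 1.33 for natural killer cells, 0 to 16.3 for mast cells and basophils and 1.25 to 25.8 for neutrophils. A dendritic cell list summed to 91.3 to 458, nearly all of it Zbtb46. Replicate 1 of ctl LPS stood apart from replicate 2: a tissue macrophage list, nearly all of it complement C1q genes, summed to 273 and 365 in statin LPS replicates 1 and 2, 1636 in ctl LPS replicate 1 and 1.25 in ctl LPS replicate 2, and to 0 to 5.88 in the resting libraries. A fibroblast list, most of it collagen genes, summed to 315 and 402 in statin LPS replicates 1 and 2, 805 and 1.25 in ctl LPS replicates 1 and 2, and at most 1.56 at rest. The part of these reads in the results was not tested. Leaving out ctl LPS replicate 1 cannot settle it, since both statin LPS libraries held such reads and ctl LPS replicate 2 held almost none. Reads from the 45S ribosomal precursor took 1.72% of statin replicate 2, against 0.0705% to 0.153% of the other libraries.

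Under LPS the activating receptors Fcgr1 and Fcgr4 were 30.8-fold and 11.5-fold lower in statin LPS than in ctl LPS cells, while Syk was 4.38-fold and the inhibitory receptor Fcgr2b 1.98-fold higher. Fcer1g was 1.53-fold lower. In that comparison 5 of the 6 genes passed an adjusted p of 0.05 in limma's test, 2 higher and 3 lower. Of all tested genes 64.3% passed (31.4% higher, 32.9% lower). At rest 5 of 6 passed for statin against Ctrl, 4 higher and 1 lower, where 56.2% of all genes passed (30.4% higher, 25.7% lower). Without statin replicate 2 the calls of Fcgr2b, Fcgr3 and Fcgr4 at rest were lost. LPS alone raised 5 of 6, of which Fcgr2b and Syk turned round when libraries were scaled to equal totals (ctl LPS against Ctrl, where 77.5% of all genes passed, 39.9% higher and 37.6% lower). With statin present, 4 were higher and 1 was lower after LPS (statin LPS against statin, where 58.2% of all genes passed, 29.2% higher and 29% lower). The statin difference under LPS was unlike that at rest for all 6, by the interaction term, with 2 positive and 4 negative values, which 55.6% of all genes passed (25.5% positive, 30.1% negative). With equal totals that term was not called for Fcer1g (adjusted p = 0.0988) or Fcgr3 (adjusted p = 0.0576). For the summed reads of Fcgr2b and Fcgr3, whose own terms had opposite signs and so offset each other, it was 0.024 (adjusted p = 0.939). Such counts are to be read against these shares of all genes.

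**Figure D1:**
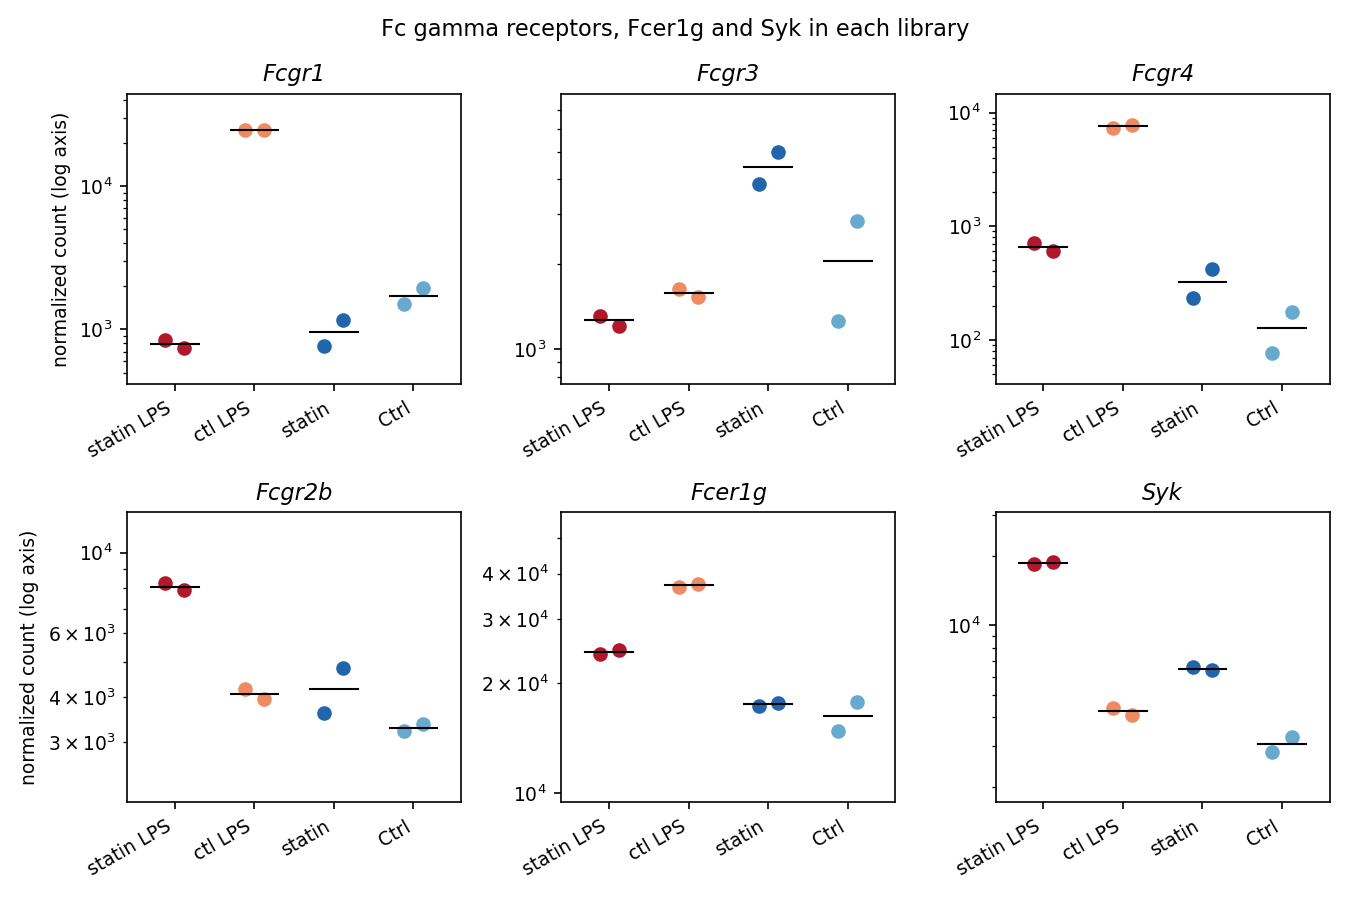
Normalized count (log axis) of each gene in the 8 libraries, by group, with points for the 2 libraries of a group and a line at their mean. Fcgr1 and Fcgr4 are highest in ctl LPS, Fcgr2b and Syk highest in statin LPS, and Fcgr3 highest in statin.

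Fcgr1, the high-affinity IgG receptor (chromosome 3, 96282909 to 96293969, minus strand, GRCm38), had 850.0 and 744 normalized counts in statin LPS cells, against 24584 and 24477.5 in ctl LPS cells. It had 762 and 1161 in statin cells, against 1499.8 and 1946 in Ctrl cells. Both ctl LPS libraries stood far above the other 6, which lay between 744 and 1946, and the statin LPS and statin libraries overlapped. Levels ran in the order ctl LPS, Ctrl, statin, statin LPS, and the lowest neighbours could not be told apart. The log2 difference of statin LPS against ctl LPS was -4.95 ± 0.19 (SE, adjusted p = 2.71e-07), which put Fcgr1 40th among the falls of the 11647 genes. The replicates of ctl LPS differed by 1.00-fold. The C1q and collagen reads were in replicate 1 of this pair and in both statin LPS libraries, and their part in the Fcgr1 difference was not tested. LPS alone raised Fcgr1 by 3.84 ± 0.19 (adjusted p = 2.46e-07), a 14.3-fold difference, whereas in statin-treated cells the LPS difference was -0.24 ± 0.19 and did not pass (adjusted p = 0.302). That last value was called without statin replicate 1 (-0.55, adjusted p = 0.0255) and with libraries scaled to equal totals (-0.60, adjusted p = 0.0193), and turned to 0.061 without statin replicate 2 (adjusted p = 0.771). At rest Fcgr1 was lower in statin than in Ctrl cells, by 0.86 ± 0.19 on the log2 scale (adjusted p = 0.00531). The size of that difference moved with single libraries, to -0.56 without statin replicate 1 (adjusted p = 0.0276) and -1.16 without statin replicate 2 (adjusted p = 0.00147).

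Fcgr4, the activating receptor for IgG2a and IgG2b (chromosome 1, 171018920 to 171029761, plus strand), had 714 and 603 normalized counts in statin LPS cells, against 7374 and 7708 in ctl LPS cells. It had 232 and 417 in statin cells, against 77.3 and 176 in Ctrl cells. No 2 groups overlapped, and the order of levels was ctl LPS, statin LPS, statin, Ctrl. The statin LPS difference from ctl LPS was -3.52 ± 0.37 (adjusted p = 6.39e-05). LPS alone gave the largest difference of the 6 genes, 6.0 ± 0.37 or 64.0-fold (adjusted p = 9.94e-07). Unlike Fcgr1, Fcgr4 was higher with statin at rest, by 1.41 ± 0.37 (adjusted p = 0.0122), so the interaction was the largest here, at -4.93 ± 0.53 (adjusted p = 9.28e-05), 56th among the falls in that term. The 2.65-fold difference at rest was close to the spread of the pairs, since the Ctrl libraries differed 2.28-fold and the statin libraries 1.80-fold. It was not called without statin replicate 2, the library with the large ribosomal share (0.98, adjusted p = 0.0954), or when only the statin and Ctrl libraries were fitted (adjusted p = 0.0739), and was 0.82 without Ctrl replicate 1 (adjusted p = 0.0463) and 2.00 without Ctrl replicate 2 (adjusted p = 0.000766). After LPS in statin-treated cells Fcgr4 was higher by 1.07 ± 0.37 (adjusted p = 0.0361), which failed once statin replicate 1 was left out (0.65, adjusted p = 0.235), and likewise without statin LPS replicate 1 (0.95, 0.158) or 2 (1.20, 0.0909), without ctl LPS replicate 1 (1.07, 0.0526) or 2 (1.07, 0.0523), and with equal totals (0.71, 0.115), DESeq2 (1.03, 0.0649) or no filter (1.07, 0.0513).

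Fcgr3, the low-affinity activating receptor (chromosome 1, 171051174 to 171064935, minus strand), had 1316 and 1213 normalized counts in statin LPS cells, against 1633 and 1531 in ctl LPS cells. It had 3853 and 4966 in statin cells, against 1262 and 2845 in Ctrl cells. Both statin libraries were above all others. The Ctrl pair, 2.25-fold apart, spanned the ctl LPS pair and overlapped the statin LPS pair. The order was statin, Ctrl, ctl LPS, statin LPS, and the neighbours below statin could not be told apart. Fcgr3 was higher with statin at rest, by 1.21 ± 0.31 (adjusted p = 0.0108), where Fcgr1 was lower. In statin-treated cells LPS lowered it, with a difference of -1.79 ± 0.31 (adjusted p = 0.00147) and an interaction of -1.53 ± 0.44 (adjusted p = 0.0174). The LPS difference without statin was -0.26 ± 0.31 (adjusted p = 0.461), and was called without Ctrl replicate 1 (-0.85, adjusted p = 0.00073) and with equal totals (-1.08, 0.00974), while without Ctrl replicate 2 it turned to 0.32 (adjusted p = 0.0618). The rise at rest was not called without statin replicate 2 (1.02, adjusted p = 0.0784) or with the statin and Ctrl libraries only (0.0657). It was 0.62 without Ctrl replicate 1 (adjusted p = 0.00692) and 1.79 without Ctrl replicate 2 (adjusted p = 3.52e-05). The interaction was -0.94 without Ctrl replicate 1 (adjusted p = 0.00272), and was not called without statin replicate 2 (-1.35, 0.0732), without statin LPS replicate 2 (-1.47, 0.0611) or with equal totals (-1.07, 0.0576). The difference between statin LPS and ctl LPS, -0.32 ± 0.31, did not pass (adjusted p = 0.388), but did without Ctrl replicate 1 (-0.32, adjusted p = 0.0328), without Ctrl replicate 2 (-0.32, 0.0332) and with the 4 LPS libraries only (0.000224).

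Fcgr2b, the inhibitory receptor (chromosome 1, 170958617 to 170976547, minus strand), had 8226 and 7872 normalized counts in statin LPS cells, against 4198 and 3946 in ctl LPS cells. It had 3619 and 4806 in statin cells, against 3216 and 3361 in Ctrl cells. The statin LPS libraries were the highest, and statin and ctl LPS overlapped. The order was statin LPS, statin, ctl LPS, Ctrl, and statin and ctl LPS could not be told apart. Under LPS it was higher with statin by 0.98 ± 0.12 (adjusted p = 0.000132), and LPS raised it in statin-treated cells by 0.95 ± 0.12 (adjusted p = 0.000227), with an interaction of 0.64 ± 0.17 (adjusted p = 0.0109). The small differences at rest (statin against Ctrl 0.34 ± 0.12, adjusted p = 0.0354) and with LPS alone (0.31 ± 0.12, adjusted p = 0.0391) passed narrowly. The first was lost without any 1 library other than statin replicate 1 (adjusted p = 0.0529 to 0.141), and ran between 0.14 without statin replicate 2 and 0.55 without statin replicate 1. The second was lost without any 1 Ctrl, statin LPS or ctl LPS library (0.0609 to 0.161) and was -0.51 with equal totals (adjusted p = 0.00272).

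The genes Fcgr2b and Fcgr3 lie near each other and share sequence. Of the 1273 windows of 75 bases in the longest coding transcript of Fcgr3, 94 (7.38%) occurred unchanged in Fcgr2b, and 321 of the 3470 windows of Fcgr2b (9.25%) occurred in another gene, most often Cplx2 and 94 of them in Fcgr3. No window of Fcgr1, Fcgr4, Fcer1g or Syk occurred in another gene. How reads from the shared stretch were assigned is not given in the sources used here, so the split between Fcgr2b and Fcgr3 is uncertain in part. The reads of both together were higher by 0.72 in statin LPS than in ctl LPS (adjusted p = 0.00447), and differed by 0.12 between statin LPS and statin (adjusted p = 0.533), where the separate genes moved in opposite directions. Their interaction was 0.024 (adjusted p = 0.939). Opposite differences offset each other in a sum, so these values do not show how the shared reads were assigned. Exons of Fcgr2b also overlapped Gm38204 on the other strand over 155 bases (2.68% of its exonic length), and no source used here gives the strand setting.

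Fcer1g, the ITAM chain that the activating receptors need for surface expression (chromosome 1, 171229572 to 171234365, minus strand), had 24029 and 24634 normalized counts in statin LPS cells, against 36779 and 37484 in ctl LPS cells. It had 17381 and 17672 in statin cells, against 14839.9 and 17800.4 in Ctrl cells. The LPS groups were apart from each other and from both resting groups, which overlapped. The log2 differences were -0.61 ± 0.09 for statin LPS against ctl LPS (adjusted p = 0.000404), 1.19 ± 0.09 for ctl LPS against Ctrl (adjusted p = 3.09e-06) and 0.47 ± 0.09 for statin LPS against statin (adjusted p = 0.00212). The last was 0.11 with equal totals (adjusted p = 0.284). The interaction was -0.72 ± 0.12 (adjusted p = 0.00144), and with equal totals -0.26 (adjusted p = 0.0988). At rest statin and Ctrl differed by 0.11 ± 0.09 (adjusted p = 0.322), which was called without Ctrl replicate 2 (0.24, adjusted p = 0.00637) and was -0.022 without Ctrl replicate 1 (adjusted p = 0.748).

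Syk, the kinase that binds the phosphorylated chain (chromosome 13, 52583173 to 52648792, plus strand), had 18507 and 18711.5 normalized counts in statin LPS cells, against 4400.2 and 4099 in ctl LPS cells. It had 6589 and 6395 in statin cells, against 2836 and 3285 in Ctrl cells. No groups overlapped, and the order was statin LPS, statin, ctl LPS, Ctrl. Syk was higher with statin both at rest, by 1.09 ± 0.08 (adjusted p = 2.25e-05), and under LPS, by 2.13 ± 0.08 (adjusted p = 2.13e-07). LPS raised it by 1.52 ± 0.08 in statin-treated cells (adjusted p = 1.51e-06) and by 0.48 ± 0.08 in cells without statin (adjusted p = 0.000498), and the interaction was 1.04 ± 0.11 (adjusted p = 8.54e-05). With equal totals the LPS difference without statin was -0.34 (adjusted p = 0.00286).

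That scaling matters because the deposited normalized counts summed to 50743319 and 50339529 in statin LPS libraries, 64200321 and 63962236 in ctl LPS libraries, 39278295 and 39405357 in statin libraries and 36342127 and 36264505 in Ctrl libraries. Equal totals moved the median of all genes by 0.34 for statin LPS against ctl LPS, -0.11 for statin against Ctrl, -0.82 for ctl LPS against Ctrl and -0.36 for statin LPS against statin, all on the log2 scale. Relative to the median of all genes under equal totals, Fcgr2b and Syk were at 0.28 and 0.45 in ctl LPS against Ctrl. The share of called genes that were higher changed with it: 74.9% against 48.9% in the main scaling for statin LPS against ctl LPS, 40.4% against 54.2% for statin against Ctrl, 20.9% against 51.5% for ctl LPS against Ctrl, 18.9% against 50.1% for statin LPS against statin, and 75.8% against 45.9% for the interaction. The statin differences of Fcgr1, Fcgr4, Fcgr2b and Syk under LPS kept direction and call under both other scalings. In bulk samples a difference in the number of cells that carry a transcript and one in its amount per cell cannot be told apart.

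**Figure D2:**
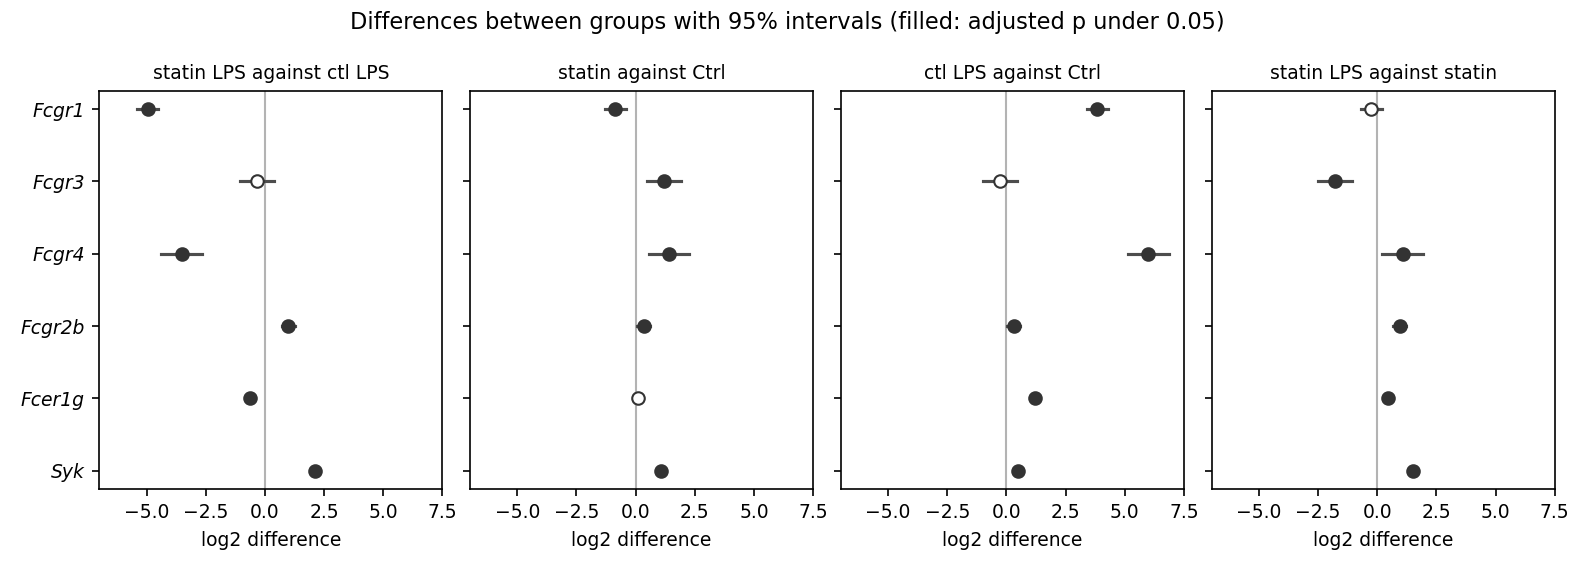
Log2 difference of each gene in the 4 comparisons, with 95% intervals from limma and filled points where the adjusted p is under 0.05. Fcgr1 and Fcgr4 lie far to the left in statin LPS against ctl LPS and far to the right in ctl LPS against Ctrl.

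The upstream sequences of the 4 receptor genes are shown because these genes differed in their responses to LPS and statin. Each is the 250 bases before the first start site listed by RefSeq (GRCm38.p6, the reference mouse genome and not that of the RAW line), read in the direction of transcription, with motif matches in capitals. The letters searched on both strands were TTCNNNGAA (the GAS element bound by STAT factors, the same on both strands), GAAANNGAA (from the core of the interferon-stimulated response element), GAGGAA (the core bound by PU.1, a macrophage lineage factor) and GGGANNTTC (from the kappa B element). No matches overlapped.
Fcgr1: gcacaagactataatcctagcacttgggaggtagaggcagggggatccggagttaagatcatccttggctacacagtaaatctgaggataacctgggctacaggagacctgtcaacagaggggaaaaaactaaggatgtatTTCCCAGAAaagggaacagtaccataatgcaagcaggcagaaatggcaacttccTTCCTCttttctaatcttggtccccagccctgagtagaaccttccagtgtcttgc
Fcgr4: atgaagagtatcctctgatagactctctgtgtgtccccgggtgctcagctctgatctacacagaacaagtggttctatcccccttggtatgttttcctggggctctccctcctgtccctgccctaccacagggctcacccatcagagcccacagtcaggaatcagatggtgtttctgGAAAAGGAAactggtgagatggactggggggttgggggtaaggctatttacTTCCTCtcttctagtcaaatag
Fcgr3: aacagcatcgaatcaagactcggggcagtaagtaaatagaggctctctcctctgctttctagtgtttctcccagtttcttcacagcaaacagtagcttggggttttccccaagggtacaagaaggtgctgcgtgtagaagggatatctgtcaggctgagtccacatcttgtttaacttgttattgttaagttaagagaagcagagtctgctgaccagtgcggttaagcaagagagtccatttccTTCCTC
Fcgr2b: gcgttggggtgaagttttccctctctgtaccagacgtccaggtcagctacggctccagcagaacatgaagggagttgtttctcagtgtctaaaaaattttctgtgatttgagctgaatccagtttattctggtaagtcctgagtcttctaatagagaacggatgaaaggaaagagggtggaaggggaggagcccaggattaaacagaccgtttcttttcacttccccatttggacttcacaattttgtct

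These windows lie at chr3:96293970-96294219 on the minus strand for Fcgr1, chr1:171018676-171018925 on the plus strand for Fcgr4, chr1:171059404-171059653 on the minus strand for Fcgr3 and chr1:170976072-170976321 on the minus strand for Fcgr2b. The Fcgr1 window held 1 GAS match at positions -109 to -101 from the start and a PU.1 core, as TTCCTC on the given strand, at -55 to -50. The Fcgr4 window held an interferon response core at -73 to -65 and a PU.1 core at -22 to -17. The Fcgr3 window held a PU.1 core in the last 6 bases before the start, and the Fcgr2b window held no match. Both of these windows lie inside the gene spans given above, which come from another gene set (GENCODE) and begin further upstream. Sequence before those earlier starts was not searched. Of 32851 such windows in RefSeq, 7.02% held the GAS letters, 7.13% the interferon response core, 23.3% the PU.1 core and 3.23% the kappa B letters, so single matches are common. The windows of Fcer1g and Syk held none of the 4. A match is only a match of letters.

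Because longer transcripts give more reads, the receptors were compared with each other per kb of their longest coding transcript. In statin LPS cells Fcgr2b led, with 55.3% and 57.1% of the summed per-kb level of the 4 receptors, against 6.67% and 6.24% in ctl LPS cells. Fcgr1 made up 7.83% and 7.39% in statin LPS cells, against 53.5% and 53.0% in ctl LPS cells, and Fcgr4 13.6% and 12.3%, against 33.1% and 34.4%. At rest Fcgr3 led, with 65.6% and 63.3% in statin cells, against 37.7% and 53.4% in Ctrl cells, where Fcgr2b followed with 36.5% and 24.0%. The libraries of a group were close to each other except for Ctrl. With the median length of the coding transcripts in place of the longest, which is shorter for Fcgr2b, its share was 74.1% and 75.5% in statin LPS cells, against 14.3% and 13.4% in ctl LPS cells, and it led in both Ctrl libraries (57.0% and 42.1%).

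The log2 ratio of an activating receptor to Fcgr2b needs no length to be compared between libraries. For Fcgr1 it was -3.27 and -3.40 in statin LPS, against 2.55 and 2.63 in ctl LPS. At rest it was -2.25 and -2.05 in statin, against -1.10 and -0.79 in Ctrl. For Fcgr4 it was -3.53 and -3.71 in statin LPS, against 0.81 and 0.97 in ctl LPS. At rest it was -3.96 and -3.53 in statin, against -5.38 and -4.25 in Ctrl. For Fcgr3 it was -2.64 and -2.70 in statin LPS, against -1.36 and -1.37 in ctl LPS. At rest it was 0.091 and 0.047 in statin, against -1.35 and -0.24 in Ctrl. Under LPS all 3 activating receptors were lower relative to Fcgr2b with statin in both libraries. At rest this held for Fcgr1 only, while Fcgr3 and Fcgr4 were higher relative to Fcgr2b. These ratios are descriptions with 2 libraries a group and no test.

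**Figure D3:**
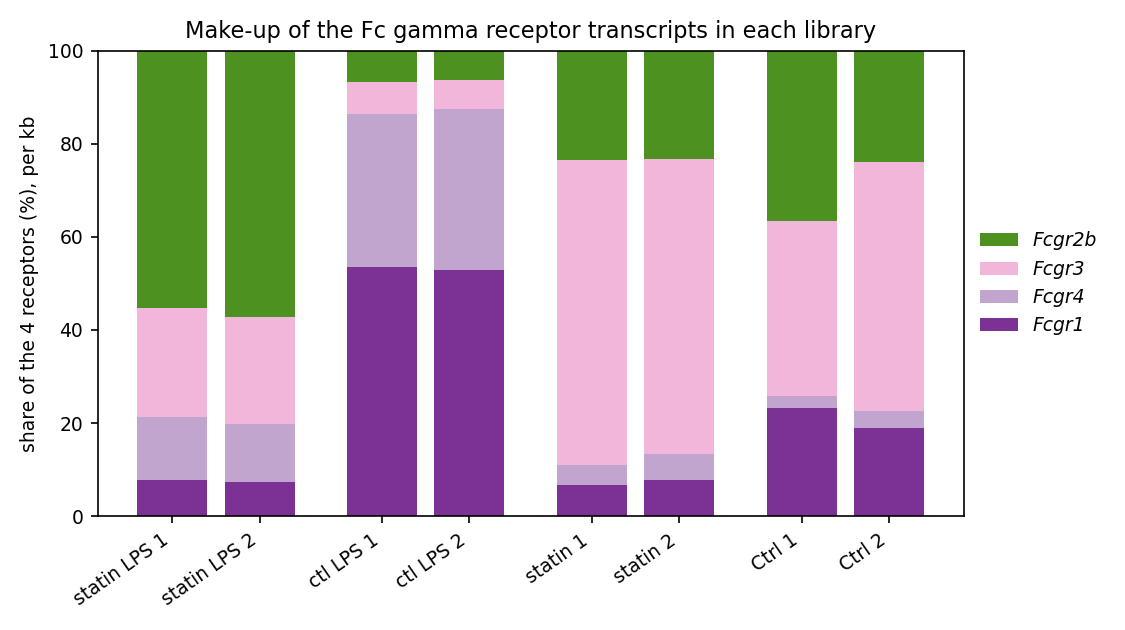
Share (%) of each Fc gamma receptor in the summed per-kb level of the 4 receptors, 1 bar per library, by longest coding transcript. Fcgr1 and Fcgr4 fill most of the ctl LPS bars, Fcgr2b the larger share of the statin LPS bars and Fcgr3 that of the statin bars.

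The genes whose log2 levels over the 8 libraries were most like a member's, by Pearson's r and with no test, were Plcl2 (0.996), Sgk3 (0.995) and Zfp90 (0.995) for Fcgr1. They were Rab9 (0.996), Mxd1 (0.995) and Chmp1b (0.995) for Fcgr4, and 4930455G09Rik (0.987), Rnd2 (0.977) and Rnpepl1 (0.973) for Fcgr3. For Fcgr2b they were Zswim1 (0.989), Sdc1 (0.982) and Cyth3 (0.978). For Fcer1g they were Mier1 (0.998), Ebi3 (0.996) and Marf1 (0.996), and for Syk Zfp703 (0.993), Erich1 (0.993) and Trim32 (0.991). The 8 points fall into 4 groups, so these values mostly compare group means. Among the members themselves the highest values were 0.98 for Fcgr4 with Fcer1g and 0.95 for Fcgr2b with Syk.

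Other receptors that signal through ITAM chains did not share one direction. Of 17 such adaptors and receptors 14 were tested. Under LPS 5 were higher and 5 lower in statin LPS than in ctl LPS cells, with a median of -0.14 (all genes -0.014). Of all genes 31.4% were called higher and 32.9% lower there. At rest 9 were higher and 3 lower with statin, with a median of 0.88 (all genes 0.012). Of all genes 30.4% were called higher and 25.7% lower at rest. Counts in this list and those below are to be read against the shares of all genes given above for each comparison. Clec4n, which encodes the fungal receptor Dectin-2, had 922 and 908 in statin LPS cells, against 162 and 156 in ctl LPS cells, and 1349 and 1408 in statin cells, against 19.5 and 18.6 in Ctrl cells, a difference of 6.10 ± 0.11 at rest (adjusted p = 6.50e-08). Cd300lb, a DAP12-coupled receptor, had 9909 and 9922 in statin LPS cells, against 796 and 803 in ctl LPS cells (3.63 ± 0.08, adjusted p = 3.75e-08). Sirpb1a had 2.69 and 6.58 in statin cells, against 158 and 68.6 in Ctrl cells (-4.32 ± 0.52, adjusted p = 0.000235), and 2.61 and 3.98 in statin LPS cells, against 40.3 and 32.6 in ctl LPS cells (-3.13 ± 0.52, adjusted p = 0.000847). At such low levels the size depends on the pseudocount. In the LPS comparisons 7 were higher and 4 lower in ctl LPS than in Ctrl cells (3 and 7 with equal totals), and 3 higher and 5 lower in statin LPS than in statin cells. Clec4e, the mycobacterial glycolipid receptor Mincle, which pairs with Fcer1g, had 114447 and 108890 in statin LPS cells, against 26204 and 26884 in statin cells, and 130311 and 130339 in ctl LPS cells, against 7573 and 6731 in Ctrl cells. Its differences after LPS were 2.07 ± 0.08 with statin (adjusted p = 3.53e-07) and 4.19 ± 0.08 without (adjusted p = 1.64e-09). Pilrb1 had 38.3 and 23.9 in statin LPS cells, against 5.37 and 7.52 in statin cells, and 137 and 120.2 in ctl LPS cells, against 1.56 and 1.96 in Ctrl cells.

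Downstream of the receptors, more of the kinases, adaptors and enzymes were called higher than lower with statin at rest, and how many depended on the scaling. Of 29 tested, 17 were higher and 3 lower, with a median of 0.39 (all genes 0.012), where 30.4% of all genes were higher and 25.7% lower. With equal totals 12 were higher and 4 lower, with a median of 0.27 (all genes -0.10). Under LPS 11 were higher and 9 lower, with a median of 0.052 (19 and 7 with equal totals). Of all genes 31.4% were higher and 32.9% lower under LPS. Src, the founding Src family kinase, had 2936 and 2262 in statin cells, against 303.7 and 388 in Ctrl cells (2.90 ± 0.14, adjusted p = 4.73e-06). Malt1, a paracaspase that links ITAM receptors to NF-kappa B, had 15121 and 12641 in statin cells, against 2327 and 2979 in Ctrl cells (2.39 ± 0.12, adjusted p = 6.69e-06). Both were much higher after LPS, at 16291 and 16755 in statin LPS and 23279.7 and 23254 in ctl LPS for Src. Malt1 reached 99319 and 96136 in statin LPS and 105620 and 102935 in ctl LPS cells. Under LPS the called genes that differed most with statin were Pik3cd, a phosphoinositide 3-kinase subunit, with 2887 and 2841 in statin LPS cells, against 10339 and 10428 in ctl LPS cells (-1.86 ± 0.06, adjusted p = 1.32e-07), and Vav2 with 423 and 469 in statin LPS cells, against 182 and 159 in ctl LPS cells (1.38 ± 0.14, adjusted p = 5.03e-05). LPS alone raised 16 and lowered 8 (14 and 14 with equal totals), and LPS with statin raised 14 and lowered 8 (12 and 14 with equal totals).

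On the inhibitory side, 12 phosphatases, ligases and adaptors were tested. Under LPS 7 were higher and 3 lower with statin, with a median of 0.24 (all genes -0.014, 31.4% higher and 32.9% lower). At rest 8 were higher and 2 lower, with a median of 0.30 (all genes 0.012, 30.4% higher and 25.7% lower). Inpp5d, which encodes the SHIP1 phosphatase recruited by Fcgr2b, had 1946 and 1921 in statin LPS cells, against 6629.9 and 7074 in statin cells, and 1652 and 1579 in ctl LPS cells, against 6894 and 7023 in Ctrl cells. It fell with LPS in both settings, by -1.82 ± 0.06 with statin (adjusted p = 1.25e-07) and -2.11 ± 0.06 without (adjusted p = 8.83e-09). Ubash3b, a phosphatase that acts on Syk, had 4686 and 4516 in statin LPS cells, against 8319.9 and 8412 in ctl LPS cells (-0.86 ± 0.10, adjusted p = 0.000143), and 2959 and 2787 in statin cells, against 1314 and 1679.9 in Ctrl cells (0.95 ± 0.10, adjusted p = 0.000155). Inppl1, the related SHIP2 phosphatase, was higher with statin at rest by 0.95 ± 0.12 (adjusted p = 0.000263), and Pag1, an adaptor that recruits the inhibitory kinase Csk, was lower under LPS by -1.15 ± 0.07 (adjusted p = 3.05e-06). LPS alone raised 7 of the list and lowered 4 (2 and 5 with equal totals), and LPS with statin raised 6 and lowered 4 (2 and 6).

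Of 12 other ITIM receptors tested, 3 were higher and 4 lower with statin under LPS, with a median of -0.13 (all genes -0.014, 31.4% higher and 32.9% lower). At rest 4 were higher and 4 lower, with a median of 0.24 (all genes 0.012, 30.4% higher and 25.7% lower). Cd300a had 3153 and 3346 in statin LPS cells, against 932 and 943 in ctl LPS cells (1.79 ± 0.08, adjusted p = 4.91e-07). Cd33 had 4886 and 4679 in statin LPS cells, against 1657 and 1694 in ctl LPS cells (1.51 ± 0.35, adjusted p = 0.0053). Pilra had 43.0 and 63.9 in statin cells, against 11.7 and 6.86 in Ctrl cells (2.42 ± 0.28, adjusted p = 0.000198). Lilrb4a had 40281 and 37359.8 in statin cells, against 13817 and 18134 in Ctrl cells (1.29 ± 0.12, adjusted p = 8.30e-05). Cd300a and Cd33 were thus higher with statin under LPS, as Fcgr2b was. Pilra (-1.40 ± 0.28, adjusted p = 0.00242) and Lilrb4a (-0.37 ± 0.12, adjusted p = 0.0282) were lower with statin under LPS, among the 4 lower genes against 3 higher. After LPS, 6 were higher and 4 lower in ctl LPS than in Ctrl cells (4 and 7 with equal totals), and 4 higher and 5 lower in statin LPS than in statin cells.

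Genes of the actin machinery that closes the phagocytic cup were lower with statin under LPS in the scaling used here. Of 24 tested, 3 were higher and 16 lower, with a median of -0.23 (all genes -0.014, 31.4% higher and 32.9% lower). With equal totals 8 were higher and 5 lower, so their direction rests on the scaling. The median of the list with equal totals was 0.11 (all genes 0.33), so it lay below that of all genes in both scalings. Leaving out any 1 of the LPS libraries gave 2 higher and 10 lower. Marcks, an actin-binding membrane protein, had 2487 and 2486 in statin LPS cells, against 9160.0 and 8993 in ctl LPS cells (-1.87 ± 0.18, adjusted p = 3.62e-05), and 9.85 and 11.3 in statin cells, against 7.03 and 10.8 in Ctrl cells. Actr3, an Arp2/3 complex subunit, had 22076 and 22209 in statin LPS cells, against 61041 and 60324 in ctl LPS cells (-1.45 ± 0.06, adjusted p = 5.21e-07). At rest 6 were higher and 6 lower with statin, with a median of 0.041 (all genes 0.012, 30.4% higher and 25.7% lower). Among the higher were Rac2 (0.60 ± 0.06, adjusted p = 0.00013) and Dock2 (0.51 ± 0.10, adjusted p = 0.00276). LPS alone raised 14 and lowered 3 (5 and 17 with equal totals), and LPS with statin raised 10 and lowered 5 (2 and 13).

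**Figure D4:**
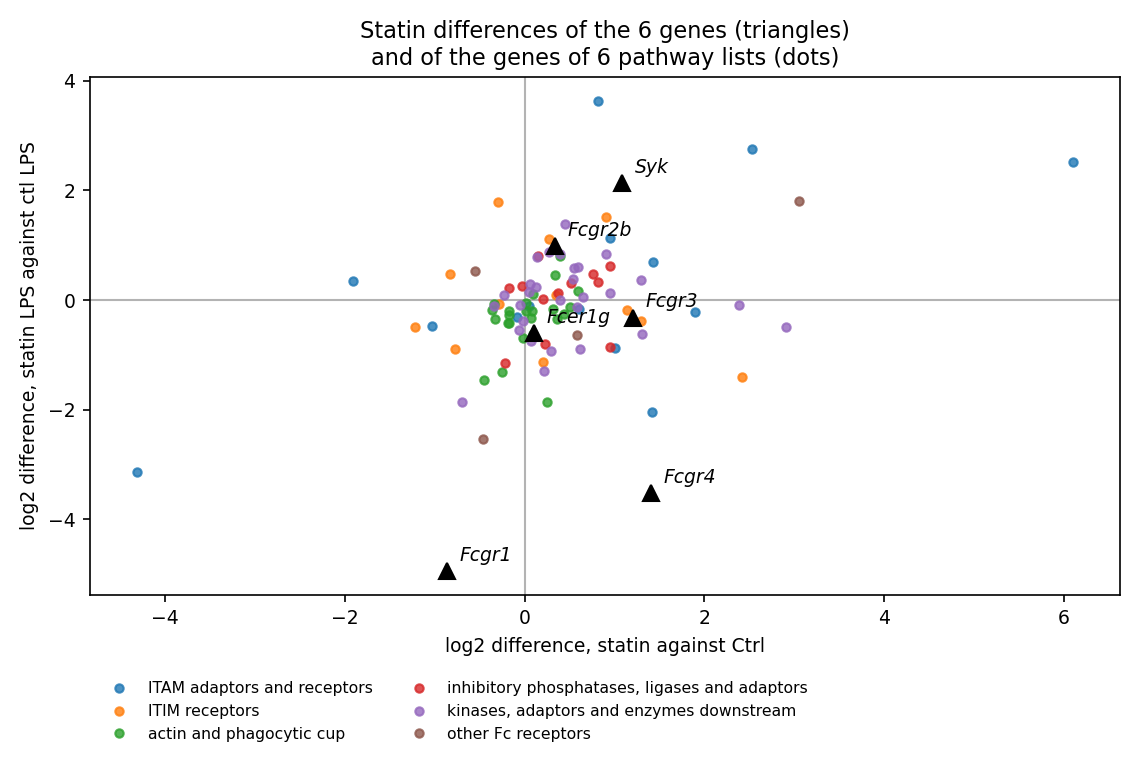
Log2 difference of statin against Ctrl (horizontal) and of statin LPS against ctl LPS (vertical) for the 6 genes, as triangles, and for the tested genes of 6 pathway lists, as dots. Fcgr1 (-0.86 and -4.95) and Fcgr4 (1.41 and -3.52) lie below all dots, while Syk (1.09 and 2.13) lies to the upper right.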

How the data were processed

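Per the labels and the study's methods, the authors depleted ribosomal RNA, made stranded libraries and deposited normalized counts, a signal equal to the read count of a gene divided by the size factor of its library. The tools named in their processing notes are DESeq2 1.18.1, HTSeq 0.9.1 and STAR 2.5.3, on build mm10, while the methods name other counting software. The strand setting is not given in the sources used here. Dividing by the value of 1 read gave whole reads for 100% of values (within 0.01). Of the columns, 12 other columns of per-sample values were not used, and the authors' own comparisons (fold changes and p-values) were not read. The table holds 27 entries with a date in place of a symbol, which cannot be named.

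Differences were tested with limma (3.58.1, R 4.3.3) on log2(normalized count + 1), so fold changes are on that scale. The fit had 1 mean per group over all 8 libraries, leaving 4 residual degrees of freedom per gene. Variances were moderated across genes along a trend with level, so the tests and intervals rest on more degrees of freedom than those. Benjamini-Hochberg adjustment was over the 11647 genes with a mean of at least 10. Differences are given ± SE and a call is an adjusted p under 0.05. The members and lists were chosen with earlier results of these data known. Named genes are the 6 members, the 2 called genes of each list with the largest absolute difference in each comparison, and the 3 genes most like each member. Values of some of these list genes are not printed. The code was tested on simulated data. Alternatives were pseudocounts of 5 and 0.5, a minimum mean of 50 or none, TMM and equal totals, edgeR and DESeq2 on recovered reads, the libraries of each comparison only, a replicate block, each library left out, and summed Fcgr2b and Fcgr3 reads. Gene models are from GENCODE M21 (GRCm38).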

Additional observations from a re-analysis of the deposited data

Results flagged for a closer look

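In the scaling of the deposited values, the statin difference under LPS differed from that at rest for each of the 6 genes, by the interaction term of limma's fit over all genes, which 55.6% of genes passed. The difference of differences, under LPS minus at rest on the log2 scale, was -4.93 for Fcgr4 (adjusted p = 9.28e-05), -4.08 for Fcgr1 (6.81e-06), -1.53 for Fcgr3 (0.0174) and -0.72 for Fcer1g (0.00144). It was 1.04 for Syk (8.54e-05) and 0.64 for Fcgr2b (0.0109). With equal totals the term was not called for Fcer1g (-0.26, adjusted p = 0.0988) or Fcgr3 (-1.07, adjusted p = 0.0576). The summed reads of Fcgr2b and Fcgr3 gave 0.024 (adjusted p = 0.939). Opposite terms offset each other in such a sum, so it tests neither gene's own term. Fcgr1 was lower and Syk higher with statin in both states. Fcgr2b was also higher in both, but at rest it passed narrowly (0.34, adjusted p = 0.0354 in limma's fit). With equal totals its difference at rest was not called (0.23, adjusted p = 0.124).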

How the results depend on the processing

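Over 574 alternative values for the 6 genes in 5 comparisons, 518 kept the call, 43 lost it, 8 gained it and 5 reversed. A value counted as reversed only if its direction turned and it was called before or after. Differences called in neither fit counted as kept even where the direction turned. Examples were Fcgr3 in ctl LPS against Ctrl (up to 0.32) and Fcgr1 in statin LPS against statin (up to 0.061). The reversed values were those of Fcgr3 with Fcgr2b and Fcgr3 reads summed, by construction (0.72 for statin LPS against ctl LPS, 0.12 for statin LPS against statin, 0.024 for the interaction), and with equal totals those of Fcgr2b (-0.51) and Syk (-0.34) in ctl LPS against Ctrl. Members called in statin against Ctrl numbered 2 with only those libraries, 2 to 5 when single libraries were left out (2 without statin replicate 2) and 2 with both ctl LPS replicate 1 and statin replicate 2 left out, a setting chosen after seeing the data. Genes called in statin LPS against statin numbered 4448 in that setting, which has fewer libraries, and up to 7757 when single libraries were left out, against 6784. The replicate numbers did not pair the samples (correlations of deviations between groups -0.05 to 0.10). With the replicate number as a block, 5 members were called in each of the 4 comparisons and 6 in the interaction, the same as without it, and 6447 genes against 6542 for statin against Ctrl. Of the named genes of the pathway lists, 1105 alternative values kept their call and 14 lost it, 11 of them Fcgrt in statin against Ctrl. With 2 libraries a group, differences near the spread of the Ctrl and statin pairs cannot be resolved.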

Other observations

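Of 13 other Fc receptor genes, 8 were at 0 in all 8 libraries and 4 were tested. Trim21, the cytosolic antibody receptor, had 3028 and 2825 normalized counts in statin LPS cells, against 17078 and 16708 in ctl LPS cells (-2.53 ± 0.13, adjusted p = 9.11e-07), and 278 and 352 in statin cells, against 477 and 391 in Ctrl cells. Fcrlb had 92.2 and 85.0 in statin LPS cells, against 24.4 and 25.04 in ctl LPS cells (1.80 ± 0.34, adjusted p = 0.00187), and 35.8 and 26.3 in statin cells, against 3.90 and 1.96 in Ctrl cells (3.06 ± 0.34, adjusted p = 0.000171). Fcgrt, the neonatal Fc receptor that recycles IgG, had 446 and 612 in statin cells, against 282 and 431 in Ctrl cells (0.58 ± 0.21, adjusted p = 0.0418), a difference not called under 11 alternative settings, among them equal totals, edgeR, only the statin and Ctrl libraries, any 1 LPS library left out, and the fits without statin replicate 2 (0.35, adjusted p = 0.249) or without Ctrl replicate 1 (0.28, adjusted p = 0.212). Fcrl1, named after its values were seen as the remaining tested gene, had 706 and 597 in statin cells, against 1217 and 745 in Ctrl cells (adjusted p = 0.0453).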
